A study of Homo sapiens with 39 samples.

Results

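HNF4A, FOXA1, FOXA2, FOXA3, CEBPA, CEBPB, ONECUT1, PROX1 and NR5A2 are transcription factors of the liver, and their levels were followed across the 39 AmpliSeq libraries of human HepaRG cells. They were chosen by name, with no threshold on a value but with earlier results of these data known, and are 9 of the 20802 gene targets in the table. All 9 had reads in every library. HepaRG is an established human hepatic progenitor line that was used here as differentiated cells bought frozen. The cells were left for 7 days after seeding and then treated daily, 3 times, before harvest at 55 h of total exposure.

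The 5 DNA damage-inducing (DDI) chemicals were aflatoxin B1 (AFB1; 0.25, 1 and 2.5 µM), 2-nitrofluorene (2NF; 10, 50 and 250 µM), cisplatin (CISP; 2, 5 and 10 µM), etoposide (ETP; 0.5, 2.5 and 10 µM) and methyl methanesulfonate (MMS; 50, 100 and 200 µM). The 5 non-DDI chemicals were colchicine (COL; 0.05, 0.1 and 0.3 µM), 2-deoxy-D-glucose (2DG; 1.25, 5 and 10 mM), sodium ascorbate (ASC; 1, 2 and 10 mM), ampicillin trihydrate (AMP; 1, 3 and 10 mM) and sodium chloride (NaCl; 1, 2.5 and 10 mM). The 3 concentrations of a chemical are called low, mid and high. There were 9 vehicle controls: 4 in DMSO (for 2NF, CISP, ETP, and 1 shared by AFB1 and COL), 4 in media (2DG, ASC, AMP and NaCl) and 1 in water (MMS). Each of these 39 conditions was 1 library of RNA pooled from 3 cultures, so a single treated library had no replicate check. As 4 of the 5 DDI chemicals were dissolved in DMSO and 4 of the 5 non-DDI chemicals in media, the class and the vehicle cannot be told apart in full.

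Hepatocytes keep their identity through a network of transcription factors that bind one another's genes and those of the secreted and metabolic proteins of the liver. HNF4A, an orphan nuclear receptor, is a central member of that network and binds genes of lipid transport, clotting and drug metabolism. The FOXA factors open chromatin at liver enhancers, ONECUT1 (HNF6) and PROX1 act in the growth and fate of hepatoblasts, the C/EBP factors govern metabolic and acute phase genes, and NR5A2 (LRH-1) governs bile acid and cholesterol genes.

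The libraries held 8504699 to 16425527 counts, with a median of 11202013. The least covered of the 9 genes was FOXA3, with 8 to 57 counts a library, and the best covered was HNF4A, with 246 to 1955. The kit reads 1 amplicon a gene, and primers differ in efficiency, so levels were compared between libraries and never between genes. Of 21 hepatocyte product genes (such as ALB, TTR and APOA1), all 21 had targets with a mean of at least 10 counts, and their summed level was 30604 to 54874 RPM (counts scaled to the library total) in the controls. Of 9 markers of cholangiocyte-like cells with a target, 5 reached that mean, and KRT7, EPCAM and CFTR stayed under 10 counts in every library. Among fetal and immune markers, GPC3, DLK1 and PTPRC were at 0 counts in all 39 libraries. A count of 0 in a single library, taken by itself, allows up to 3 counts by counting error alone. The bound on a level shared by all 39 libraries is lower. The cells are a bulk sample, so fewer cells of a type and less RNA per cell cannot be told apart.

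RefSeq start windows (GRCh38.p14, 250 bases before to 50 after a start) were held for 7 of the 9 genes, as 10 windows. Those of ONECUT1, the 1 gene with a trend in 4 chemicals, and the 2 starts each of HNF4A and NR5A2 are shown, and the others are given by their matches. The windows were searched on both strands for TATAAA (the TATA box), TGTTTAC (bound by forkhead factors, the family of FOXA), AGGTCA (a half-site of nuclear receptors such as HNF4A and NR5A2) and CCAAT. Matches are in capitals, and no match overlaps another.
HNF4A, upstream start, chr20:44355449-44355748, plus strand: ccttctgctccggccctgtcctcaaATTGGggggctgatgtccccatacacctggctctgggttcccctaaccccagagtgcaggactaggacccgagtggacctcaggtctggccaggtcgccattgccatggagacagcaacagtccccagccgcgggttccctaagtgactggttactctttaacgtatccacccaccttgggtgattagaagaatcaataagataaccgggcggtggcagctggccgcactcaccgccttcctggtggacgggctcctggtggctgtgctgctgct
HNF4A, downstream start, chr20:44400989-44401288, plus strand: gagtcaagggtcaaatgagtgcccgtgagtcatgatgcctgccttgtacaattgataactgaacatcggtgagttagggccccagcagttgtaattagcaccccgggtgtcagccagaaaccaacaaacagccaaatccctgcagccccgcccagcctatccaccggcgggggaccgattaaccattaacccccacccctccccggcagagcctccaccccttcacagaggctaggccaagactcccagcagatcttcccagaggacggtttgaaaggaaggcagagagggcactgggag
ONECUT1, chr15:52790287-52790586, minus strand: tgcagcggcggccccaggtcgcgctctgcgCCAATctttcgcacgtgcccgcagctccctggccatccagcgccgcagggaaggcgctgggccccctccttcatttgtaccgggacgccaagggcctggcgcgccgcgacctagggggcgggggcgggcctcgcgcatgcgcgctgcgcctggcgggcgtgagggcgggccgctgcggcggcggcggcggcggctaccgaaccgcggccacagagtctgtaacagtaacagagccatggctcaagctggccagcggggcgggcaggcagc
NR5A2, upstream start, chr1:200027460-200027759, plus strand: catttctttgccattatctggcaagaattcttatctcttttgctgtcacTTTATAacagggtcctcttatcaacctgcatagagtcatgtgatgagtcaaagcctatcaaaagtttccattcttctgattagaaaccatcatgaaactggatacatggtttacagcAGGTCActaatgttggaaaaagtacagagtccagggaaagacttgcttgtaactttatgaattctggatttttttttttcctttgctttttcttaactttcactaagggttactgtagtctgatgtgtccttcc
NR5A2, downstream start, chr1:200042341-200042640, plus strand: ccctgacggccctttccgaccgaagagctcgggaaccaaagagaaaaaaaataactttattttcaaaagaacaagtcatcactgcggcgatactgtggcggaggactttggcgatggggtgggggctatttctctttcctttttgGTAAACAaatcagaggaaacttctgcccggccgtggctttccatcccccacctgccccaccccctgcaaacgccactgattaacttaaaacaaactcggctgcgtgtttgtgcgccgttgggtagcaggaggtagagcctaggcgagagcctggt
The downstream window of NR5A2 held 1 TGTTTAC, on the reverse strand, which 3.42% of the 35116 windows in the table hold, and that of HNF4A held none of the motifs searched. The upstream window of NR5A2 held 1 TATAAA and 1 AGGTCA, present in 11.5% and 13.8% of all windows. The windows of HNF4A (upstream) and ONECUT1 held 1 CCAAT each, which 34.6% of windows hold. Of the windows not shown, that of CEBPA held 1 TATAAA, that of FOXA3 1 TATAAA and 1 AGGTCA, and that of FOXA1 no match. The 2 windows of CEBPB overlap and hold the same CCAAT, and 1 of them also holds a TATAAA. Each match is a description of letters and not of a bound site. The readout gave 1 value for a gene, so transcripts from the 2 starts of HNF4A or NR5A2 were not separated.

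The levels in untreated cells came first. HNF4A had 80.7 to 113.2 RPM in the 4 DMSO controls (94.7 ± 13.6, SD, n = 4), 61.8 to 101.4 RPM in the 4 media controls (80.1 ± 21.1, SD, n = 4) and 59.9 RPM in the water control. The DMSO and media ranges overlapped. ONECUT1 had 43.0, 49.9, 51.7 and 53.0 RPM in DMSO and 25.6, 34.8, 37.6 and 39.01 RPM in media, with 28.8 RPM in water. ONECUT1 alone of the 9 genes had no overlap between DMSO and media, with every DMSO control above every media control. How many of all genes had no such overlap was not counted. The difference of ONECUT1 was 0.55 ± 0.15 log2 (SE). The edgeR quasi-likelihood test, with Benjamini-Hochberg adjustment over 13053 genes, gave it an adjusted p of 0.0526.

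By that test 0 of the 9 genes differed between DMSO and media, against 5.35% of all genes tested. ONECUT1 was the 1 gene of the 9 with an unadjusted p under 0.05 (0.00295, edgeR), where 2740 of 13053 genes had one. DESeq2 called ONECUT1 with an adjusted p of 0.0139, where it called 1144 of 13050 genes. Over the alternatives the edgeR and DESeq2 adjusted p of ONECUT1 ran from 0.0139 to 0.133. Without the NaCl control it was 0.0486. The other differences, DMSO minus media, ran from -0.59 ± 0.33 (SE) for FOXA3 to 0.38 ± 0.34 (SE) for CEBPA. In the same comparison TTR (1.55 ± 0.23, SE, adjusted p 0.00531), APOC3 (1.02 ± 0.22, adjusted p 0.0232) and APOA1 (0.82 ± 0.21, adjusted p 0.0475), all carriers of the blood plasma, were higher in DMSO by edgeR, and were the 3 called of 21 hepatocyte product genes. Of 4 cholangiocyte-like markers tested, 1 was lower and 1 higher in DMSO, and of 3 endothelial and immune markers 0 were called. Of 28 other transcription factors of the liver, 3 were higher and 1 was lower. Of 7 mesenchymal markers tested, 4 were lower in DMSO, with COL3A1, a fibrillar collagen, at -2.46 ± 0.40 (SE, edgeR adjusted p 0.00736). The summed mesenchymal level was 197 to 247 RPM in the DMSO controls and 332 to 490 RPM in the media controls. The part of these cells in the difference of ONECUT1 was not tested.

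**Figure D1:**
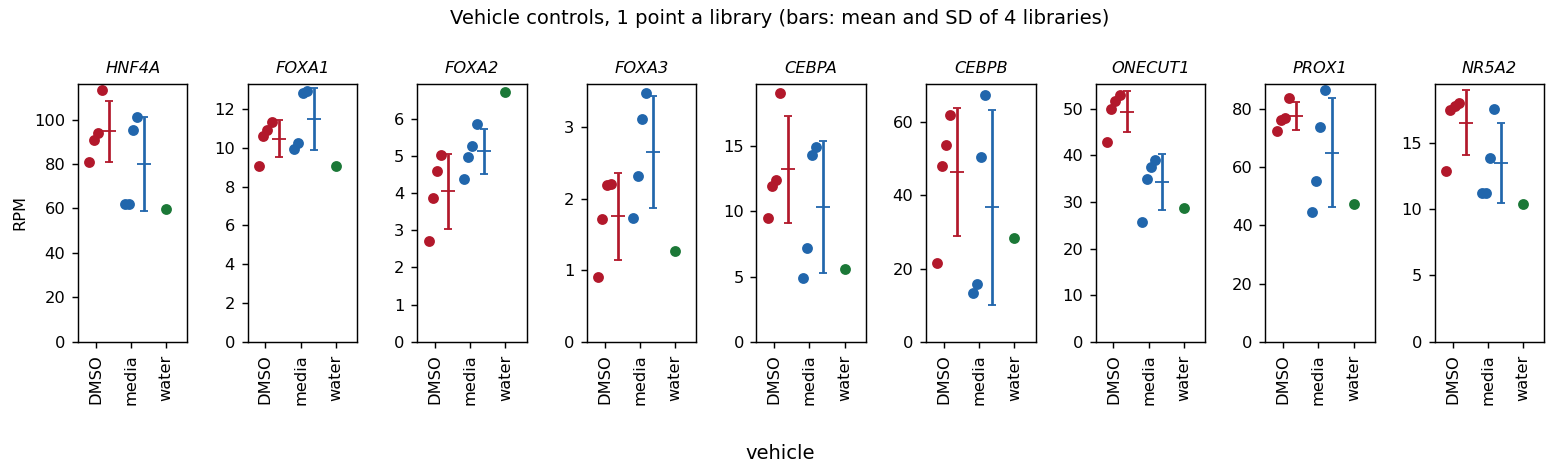
RPM of each gene (y axis, a scale of its own for each gene, from 0) in the 9 vehicle controls by vehicle (x axis). Points are libraries and bars are the mean and SD of 4 libraries. ONECUT1 lies between 43.0 and 53.0 RPM in DMSO and between 25.6 and 39.01 RPM in media, while the other genes overlap.

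A slope on concentration (control 0, low 1, mid 2, high 3) was fitted for each chemical over all 39 libraries, with the control set as a block, and tested by edgeR over 13812 genes. At least 1 of the 9 genes was called lower after 4 of the 10 chemicals: AFB1, 2NF, MMS and COL. After MMS, 6 of the 9 fell (HNF4A, FOXA1, FOXA2, ONECUT1, PROX1 and NR5A2), where 10.4% of all genes tested fell. After COL, 6 of the 9 fell (HNF4A, FOXA1, CEBPA, ONECUT1, PROX1 and NR5A2), against 7.21% of all genes. After AFB1, 3 of the 9 fell (CEBPA, ONECUT1 and PROX1), against 3.21% of all genes. After 2NF, 1 of the 9 fell (ONECUT1), against 4.45% of all genes, and that single call was lost in 4 of 12 alternatives. None of the 9 rose after any chemical by this test, where 2.36% (AFB1), 4.3% (2NF), 5.1% (MMS) and 5.13% (COL) of all genes rose.

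AFB1 and COL shared 1 control, so their trends are not independent of each other. The median slope of the 9 genes was -0.33 log2 per step after AFB1, -0.28 after 2NF, -0.39 after MMS and -0.44 after COL, while that of all genes tested lay within 0.01 of 0. After CISP, ETP, 2DG, ASC, AMP and NaCl, 0 of the 9 were called by edgeR, and 0 by DESeq2, which gave FOXA2 and FOXA3 no adjusted p in ASC. At an unadjusted p under 0.05 there were 2 in NaCl (FOXA2 at -0.24 ± 0.12 and PROX1 at 0.26 ± 0.12 log2 per step, SE) and 0 in each of the other 5. Among all genes, ETP gave 11 calls by edgeR (0.0796% of all genes, either direction), ASC 8 (0.0579%), NaCl 6 (0.0434%) and CISP, 2DG and AMP 0 (0%). Without the high concentration of every chemical the calls among the 9 were 0 for AFB1, 1 for 2NF, 5 for MMS and 0 for COL. Among all 13736 genes of that fit the calls were 0, 479, 1398 and 93. Without the low concentration they were 0, 0, 2 and 2 among the 9, and 373, 805, 1287 and 1027 among 13731 genes. Without the controls 0 of the 9 were called in each, on 10 residual degrees of freedom, with 3 to 100 calls among all genes.

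**Figure D2:**
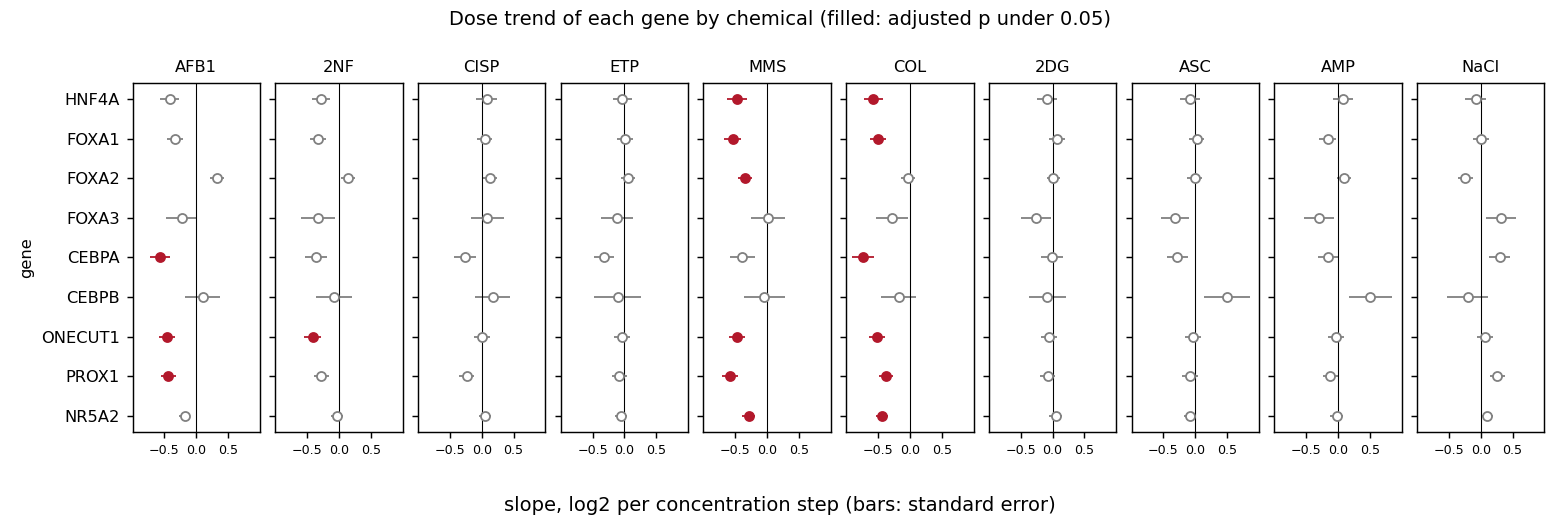
Slope of each gene (rows) on concentration, in log2 per step (x axis, -1 to 1), for the 10 chemicals (panels). Bars are standard errors and filled red points have an edgeR adjusted p under 0.05. The 16 filled points lie in AFB1 (3), 2NF (1), MMS (6) and COL (6), and all are below 0.

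HNF4A fell after MMS and COL. After COL it went from 90.8 RPM in the control to 72.7, 47.7 and 31.1 RPM at the low, mid and high concentration. After MMS it went from 59.9 RPM to 45.3, 21.8 and 27.8 RPM. Each COL step was lower than the one before, whereas after MMS the lowest library was the mid concentration. The slopes were -0.58 ± 0.15 log2 per step (SE, edgeR adjusted p 0.0101) for COL and -0.47 ± 0.15 (SE, edgeR adjusted p 0.0374) for MMS. At the high concentration HNF4A stood at 34.3% of its control after COL and at 46.3% after MMS. The largest difference between any 2 DMSO or any 2 media controls, called the control spread of a gene, was 0.71 log2 for HNF4A, and both ratios exceeded it (log2 ratio of RPM + 1 of -1.51 and -1.08).

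After AFB1 HNF4A went from 90.8 to 78.6, 66.5 and 40.4 RPM, a slope of -0.42 ± 0.15 (SE) that did not pass the test (edgeR adjusted p 0.115). After 2NF it had 113.2, 100.9, 38.03 and 79.4 RPM, so that the mid library alone stood beyond the control spread. In the other 6 chemicals HNF4A ranged from 47.3 RPM (2DG, mid) to 158.1 RPM (AMP, mid) over 18 libraries, with a median of 85.7 RPM. The mid libraries of CISP (139.8 RPM) and AMP (158.1 RPM) were above their controls (80.7 and 95.1 RPM) by more than the spread, and the high libraries of both (81.8 and 86.1 RPM) were not.

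ONECUT1 was the 1 gene called after all of AFB1, 2NF, MMS and COL. After AFB1 it had 53.0, 48.7, 41.7 and 21.4 RPM from control to high, and after COL, from the same control, 45.1, 40.0 and 19.1 RPM. After 2NF it had 51.7, 62.0, 30.8 and 26.8 RPM, and after MMS 28.8, 21.6, 7.0 and 14.7 RPM. The high library kept 40.4% of its control in AFB1, 36.0% in COL, 51.9% in 2NF and 50.9% in MMS, and all 4 lay beyond the control spread of 0.59 log2. The slopes were -0.47 ± 0.12 (AFB1), -0.42 ± 0.13 (2NF), -0.47 ± 0.13 (MMS) and -0.51 ± 0.12 (COL) log2 per step (SE), with edgeR adjusted p of 0.0225, 0.0439, 0.0125 and 0.00566. In the remaining 6 chemicals its high library kept between 88.1% (ASC) and 112.2% (NaCl) of the control, inside that spread.

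PROX1 fell after AFB1, MMS and COL. After MMS it had 47.3, 23.0, 12.6 and 16.8 RPM from control to high, after AFB1 84.1, 55.6, 60.0 and 33.3 RPM, and after COL 84.1, 66.1, 68.6 and 34.8 RPM. In MMS all 3 concentrations lay beyond the control spread of 0.94 log2, and in AFB1 and COL the high concentration did. The slopes were -0.58 ± 0.12 (MMS), -0.44 ± 0.12 (AFB1) and -0.37 ± 0.12 (COL) log2 per step (SE), with edgeR adjusted p of 0.00144, 0.0200 and 0.0332. After 2NF PROX1 had 77.2, 55.1, 41.3 and 47.0 RPM, a slope of -0.28 ± 0.12 (SE, edgeR adjusted p 0.169). After NaCl it went the other way, with 55.3, 58.9, 71.8 and 87.9 RPM and a slope of 0.26 ± 0.12 (SE, edgeR adjusted p 0.982), inside the spread between controls.

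**Figure D3:**
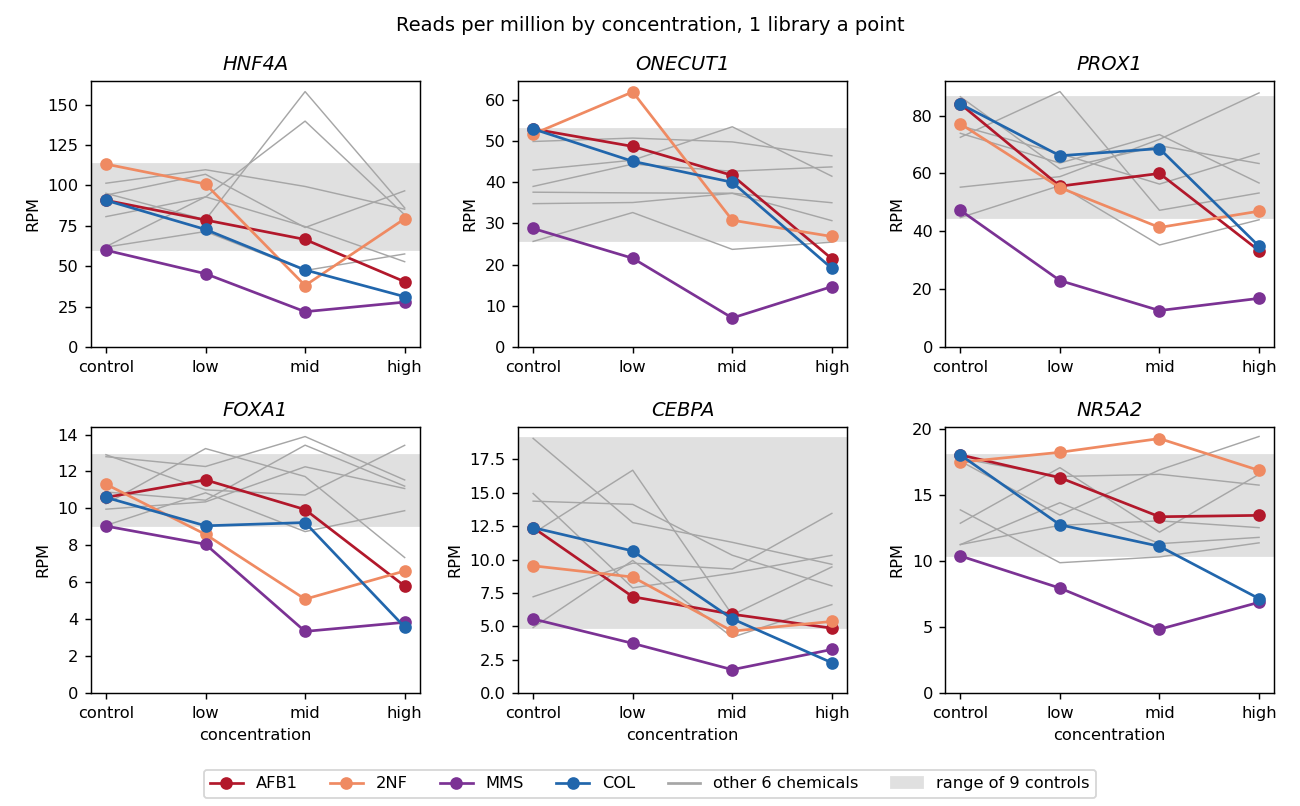
RPM (y axis, from 0) of 6 of the genes by concentration (x axis), 1 library a point. Coloured lines are AFB1, 2NF, MMS and COL, grey lines the other 6 chemicals and the grey band the range of the 9 controls. In HNF4A, ONECUT1, PROX1 and FOXA1 the high AFB1, MMS and COL libraries lie under the band.

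The 3 FOXA genes did not move together. FOXA1 fell after MMS (9.0, 8.1, 3.3 and 3.8 RPM from control to high) and after COL (10.6, 9.1, 9.2 and 3.6 RPM). The slopes were -0.54 ± 0.14 and -0.50 ± 0.13 log2 per step (SE, edgeR adjusted p 0.00753 and 0.00856). After COL the low and mid libraries kept 85.5% and 87.1% of the control, and only the high one stood beyond the control spread of 0.34 log2. After AFB1 FOXA1 had 10.6, 11.5, 9.9 and 5.8 RPM and after 2NF 11.3, 8.6, 5.1 and 6.6 RPM, slopes of -0.33 ± 0.12 and -0.33 ± 0.13 (SE) that did not pass (edgeR adjusted p 0.130 and 0.122). FOXA1 had the tightest controls of the 9 genes, at 9.0 to 12.9 RPM.

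FOXA2 fell after MMS, with 6.7, 4.3, 4.9 and 3.2 RPM (slope -0.35 ± 0.11, SE, edgeR adjusted p 0.0397). That call was lost in 6 of 12 alternatives, DESeq2 among them (adjusted p 0.0636). Its values after AFB1 ran upwards, at 2.7, 4.4, 5.4 and 5.7 RPM, and those after COL, from the same control, were 3.3, 2.3 and 3.5 RPM. The AFB1 slope was 0.33 ± 0.11 (SE) and did not pass (edgeR adjusted p 0.0750), although the mid and high libraries lay above the control spread of 0.70 log2. The shared control, at 38 counts, held the lowest FOXA2 level of the 9 controls and the water control of MMS the highest, and the other 7 lay between 3.9 and 5.9 RPM. Against the mean of the DMSO controls the high AFB1 ratio of FOXA2 went from 0.85 to 0.43, inside the spread. Against the mean of all 9 controls it was 0.23. FOXA3 had 0.7 to 3.5 RPM in all libraries and was called in no chemical (edgeR adjusted p of 0.522 or more in each). At 8 to 57 counts a library, its control spread was 0.75 log2.

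CEBPA fell after AFB1 and COL. After AFB1 it had 12.4, 7.2, 5.9 and 4.9 RPM from control to high, and after COL, from the same control, 10.6, 5.6 and 2.3 RPM. The slopes were -0.57 ± 0.16 and -0.73 ± 0.18 log2 per step (SE), with edgeR adjusted p of 0.0322 and 0.00563. The high COL library held 18.4% of its control, the lowest share of the 9 genes at any high concentration. After MMS CEBPA had 5.6, 3.7, 1.8 and 3.3 RPM (slope -0.39 ± 0.19, SE, edgeR adjusted p 0.181). Its controls were widely spread, from 4.9 RPM (2DG) to 19.1 RPM (ETP), a control spread of 1.43 log2 that only the high COL library exceeded.

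NR5A2 fell after MMS and COL. After COL it had 18.0, 12.8, 11.1 and 7.2 RPM and after MMS 10.4, 8.0, 4.8 and 6.9 RPM. The slopes were -0.44 ± 0.09 and -0.29 ± 0.10 log2 per step (SE, edgeR adjusted p 0.00192 and 0.0489). The MMS call was lost in 7 of 12 alternatives, DESeq2 among them (adjusted p 0.0551), and the COL call in 2 of 12. After 2NF it stayed between 16.9 and 19.3 RPM, near its control of 17.5 RPM (slope -0.03 ± 0.10, SE, edgeR adjusted p 0.933). After AFB1 it had 18.0, 16.3, 13.4 and 13.5 RPM (slope -0.18 ± 0.09, SE, edgeR adjusted p 0.302).

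CEBPB was called in no chemical, and its controls differed more than those of any other gene of the 9. The DMSO controls had 21.5 (ETP), 48.0 (CISP), 53.8 (AFB1 and COL) and 61.9 RPM (2NF). The media controls had 13.3 (ASC), 15.7 (AMP), 50.4 (NaCl) and 67.5 RPM (2DG), and the water control 28.5 RPM. The control spread was 2.26 log2, and the low CISP library, at 3.6 RPM against 48.0 RPM, was the 1 treated library beyond it. CISP at the mid and high concentration had 51.3 and 50.3 RPM. The treated AMP and ASC libraries had 45.9 to 59.3 RPM, above their own low controls.

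The 3 genes whose levels were most like those of CEBPB over the 39 libraries were SF1 (a splicing factor, Pearson r = 0.95), CANX (a chaperone of the endoplasmic reticulum, r = 0.94) and EIF4B (a translation initiation factor, r = 0.94), which most cells express. They too were lowest in the low CISP library, at 41.8, 261.4 and 82.04 RPM against medians of 248.9, 919.9 and 422.3 RPM. The ASC control, next lowest in CEBPB, was next lowest in all 3 as well (87.1, 446.6 and 155.7 RPM). CEBPA ran high in several of these libraries, with 19.1 RPM in the ETP control, 16.7 RPM in the low CISP library, 14.9 RPM in the AMP control and 14.4 RPM in the ASC control, the 4 highest of the 39. The 6 libraries lowest in CEBPB were the low CISP and low 2DG libraries, the high ETP library and the ASC, AMP and ETP controls, at 3.6 to 21.5 RPM. The same 6 were the lowest of the 39 in SF1 and in EIF4B, and 5 of them were among the 6 lowest in CANX. The part of this pattern in the results was not tested in itself. With the mean level of SF1, CANX and EIF4B as a covariate the calls were 3 for AFB1, 1 for 2NF, 6 for MMS and 7 for COL, and without the low CISP library 3, 1, 6 and 6. The added call in COL was CEBPB itself (-0.22 log2 per step, edgeR adjusted p 0.0379), whose covariate was picked for its likeness to it.

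**Figure D4:**
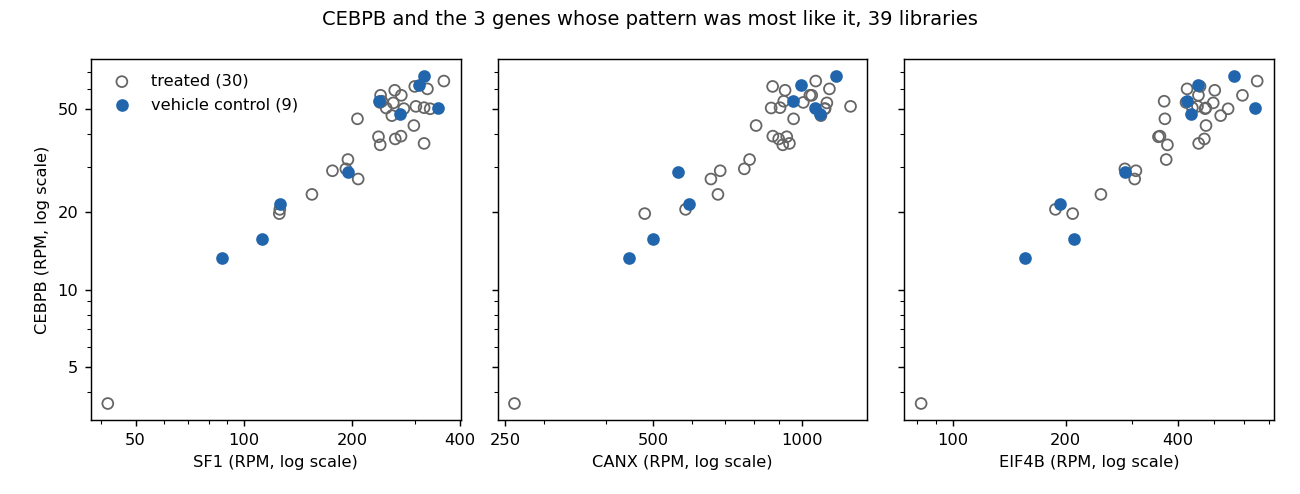
CEBPB (y axis, RPM, log scale) against SF1, CANX and EIF4B (x axes, RPM, log scales) in 30 treated and 9 control libraries. The single point at the lower left is the low CISP library, with 3.6 RPM of CEBPB, and controls span the rest of the range.

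Past the control spread at the high concentration, the genes lower than their matched control were 4 of 9 in AFB1 (7.96% of 12937 genes with a mean of at least 10 counts), 3 in 2NF (8.92%), 5 in MMS (13.2%) and 6 in COL (11.3%). They were 2 in AMP (FOXA1 and FOXA3, 4.12%) and 0 in CISP (3.22%), ETP (3.29%), 2DG (1.99%), ASC (9.38%) and NaCl (4.96%). The median log2 ratio of the 9 genes was -0.77 in AFB1, -0.69 in 2NF, -0.90 in MMS and -1.25 in COL, where all genes had medians of 0.05 to 0.10. At the low concentration the counts were 1 in 2NF (FOXA1), 1 in MMS (PROX1), 1 in CISP (CEBPB) and 0 in the other 7 chemicals. The mid MMS library had all 9 genes under their control (median log2 ratio -1.21, against 0.08 for all genes). FOXA2 in AFB1 (mid and high), FOXA3 in CISP (low and mid) and HNF4A in CISP and AMP (mid) were above their control by more than the spread. The share of all genes was counted only for lower genes at the high concentration, so these counts have none beside them. The CISP control held the lowest FOXA3 level of the 4 DMSO controls, 0.9 RPM. Against the mean of the DMSO controls the high CISP ratio of FOXA3 went from 0.48 to -0.02. By the same change of control the high AFB1 ratio of FOXA2 went from 0.85 to 0.43, inside its spread.

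**Figure D5:**
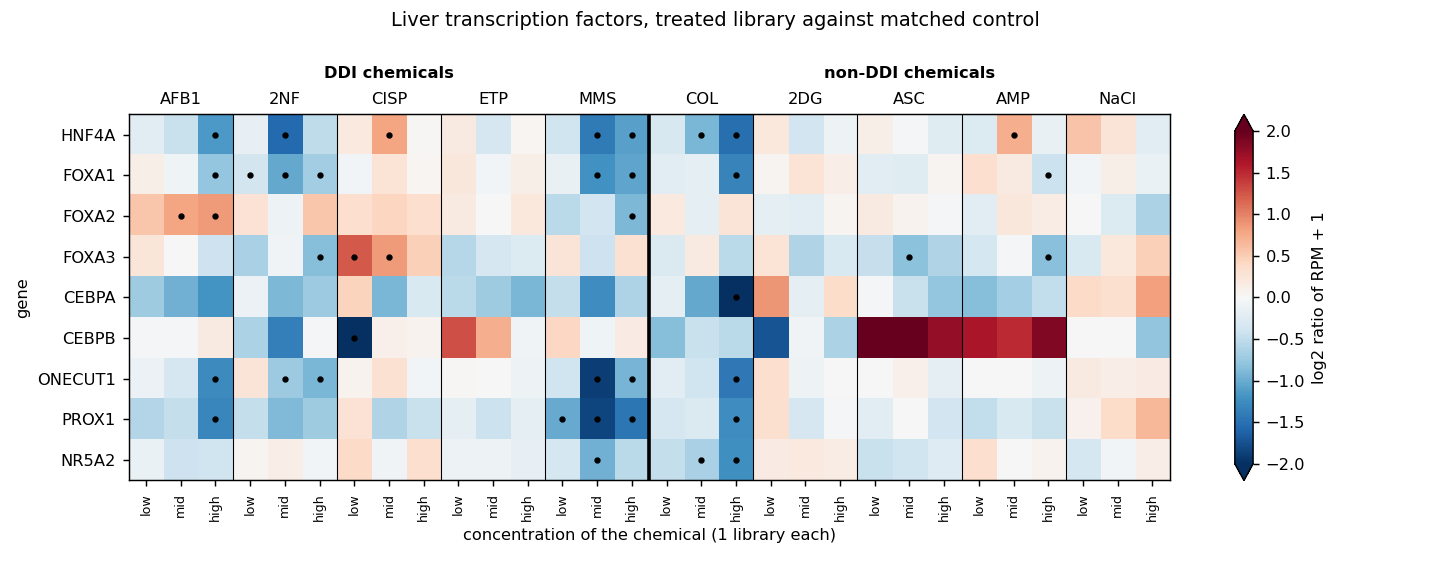
Log2 ratio of RPM + 1 against the matched control (colour, blue lower, red higher, colours end at -2 and 2) for the 9 genes (rows) in the 30 treated libraries (columns, low to high for each chemical). Black dots mark ratios larger than the control spread of the gene. Blue runs through most rows in the high AFB1, 2NF, MMS and COL libraries, and the CEBPB row differs from the rest.

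To ask what was particular to a chemical, its slope was set against the mean slope of the other 9 chemicals. In MMS, PROX1 (-0.43 ± 0.13 log2 per step, SE, edgeR adjusted p 0.0409) and FOXA2 (-0.40 ± 0.12, SE, edgeR adjusted p 0.0451) were lower than in the rest, where 5.08% of all genes were. In COL, NR5A2 was lower (-0.39 ± 0.09, SE, edgeR adjusted p 0.0115), where 2.77% of all genes were. In NaCl, PROX1 was higher than in the rest (0.51 ± 0.13, SE, edgeR adjusted p 0.0424, where 0.796% of all genes were), and the rest included the chemicals after which it fell. None of the 9 was called for AFB1 or 2NF, where 0.688% and 2.64% of all genes were called in either direction. Leaving out 1 concentration of every chemical, or the controls, gave 0 to 3 calls in MMS, 0 to 4 in COL and 0 to 1 in NaCl. Among all genes these fits gave 6 to 740 calls in MMS, 0 to 840 in COL and 0 to 216 in NaCl. None of these 4 calls of members held throughout. The FOXA2 call was lost in all 4 fits, those of PROX1 in MMS and in NaCl in 3 each, and that of NR5A2 in 2.

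The class comparison asked whether DDI and non-DDI chemicals differed, with chemicals as the replicates (5 against 5). At the high concentration 0 of the 9 genes differed by edgeR and 0 by DESeq2, where edgeR called 7 of 13602 genes (0.0515%), and 0 of the 9 had an unadjusted p under 0.05. PROX1 was lower than its control in 5 of 5 DDI and 4 of 5 non-DDI chemicals, with log2 ratios of -0.82 ± 0.54 and -0.29 ± 0.69 (SD, n = 5). The fitted class difference of PROX1 was -0.53 ± 0.32 log2 (SE, edgeR adjusted p 0.764). That of ONECUT1 was -0.35 ± 0.30 (SE) and that of HNF4A -0.09 ± 0.29 (SE), which changed sign in 4 of 16 alternatives. The DDI and non-DDI ranges overlapped for all 9 genes. Within the DDI class the high libraries of AFB1, 2NF and MMS had 3 to 5 genes below the control spread and those of CISP and ETP had 0, and within the non-DDI class COL stood below the other 4 in HNF4A, FOXA1, CEBPA, ONECUT1, PROX1 and NR5A2. At the mid and low concentrations 0 of the 9 were called by either tool, 1 (PROX1 at mid, -0.67 ± 0.25, SE) and 0 had an unadjusted p under 0.05, and edgeR called 0 genes in all.

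Hepatocyte product genes were called lower after the same 4 chemicals, of which 2NF had 1 call among the 9 genes. The product genes called were 16 of 21 after AFB1, 13 after 2NF, 18 after MMS, 16 after COL and 0 after the other 6. Of all genes tested, 3.21% fell after AFB1, 4.45% after 2NF, 10.4% after MMS and 7.21% after COL. Examples were CYP7A1, the rate-limiting enzyme of bile acid synthesis, after AFB1 (-1.86 ± 0.23 log2 per step, SE, edgeR adjusted p 4.71e-05), CPS1, of the urea cycle, after 2NF (-1.30 ± 0.18, SE, edgeR adjusted p 3.04e-05) and APOA1, an apolipoprotein of high-density lipoprotein, after MMS (-0.94 ± 0.11, SE, edgeR adjusted p 4.74e-06). Their summed level was 48534 RPM in the control of AFB1 and COL, 28497 RPM in the high AFB1 library and 23284 RPM in the high COL library. In MMS it was 30846 RPM in the control and 9352 RPM in the high library, and in 2NF 43865 and 16618 RPM. Of 30 other transcription factors of the liver, 4 fell after AFB1, 4 after 2NF, 16 after MMS and 14 after COL, with 1 rising after 2NF, 1 after COL and 0 after AFB1 and MMS. They included NR1I3 (CAR, a receptor that senses drugs) after AFB1 (-1.35 ± 0.24, SE, edgeR adjusted p 0.000797) and FOXO1 after MMS (-0.46 ± 0.06, SE, edgeR adjusted p 1.09e-05).

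Markers of other cell types moved in part with these genes. The lists are short, and of all genes tested 3.21% (AFB1), 4.45% (2NF), 10.4% (MMS) and 7.21% (COL) fell. Those that rose were 2.36%, 4.3%, 5.1% and 5.13%, in the same order. Of 5 cholangiocyte-like markers tested, 3 fell after MMS (SPP1, SOX9 and KRT23), 1 fell after COL (SPP1), and after 2NF 2 fell (KRT19 and SOX9) and SPP1 rose. Their summed level went from 1269 to 811 RPM in MMS, from 704 to 318 RPM in 2NF, from 1341 to 1106 RPM in COL and from 1341 to 1368 RPM in AFB1, control to high. Of 8 mesenchymal markers tested, 3 fell after MMS, 2 rose after COL, 1 rose after AFB1, and 1 rose and 1 fell after 2NF. Their summed level went from 538 to 396 RPM in MMS, and from 247 to 314 RPM in COL and 397 RPM in AFB1, and from 235 to 326 RPM in 2NF. Of 3 endothelial and immune markers tested, 2 fell after MMS (PECAM1 and CD14), 1 fell after COL (CD14) and 0 were called after AFB1 and 2NF. Their summed level went from 109 to 67.1 RPM in MMS, from 133 to 88.9 RPM in COL, from 133 to 91.1 RPM in AFB1 and from 142 to 144 RPM in 2NF. The part of the makeup of the cultures in the trends of the 9 genes was not tested.

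Across the 39 libraries, which share platform and run, the genes most like ONECUT1 were SULT2A1 (a sulfotransferase of bile acids and steroids, Pearson r = 0.95), SERPIND1 (heparin cofactor, r = 0.95) and APOA1 (r = 0.95). Those most like HNF4A were CAT (catalase, r = 0.93), FRK (a tyrosine kinase, r = 0.92) and ALDH5A1 (a mitochondrial dehydrogenase, r = 0.92). PROX1 was most like IQGAP2 (r = 0.92), HAO1 (r = 0.92) and ACMSD (r = 0.92), CEBPA most like PCCA (r = 0.89), EHHADH (r = 0.88) and SCP2 (r = 0.87), and FOXA1 most like CALML4 (r = 0.91). NR5A2 was most like SCCPDH (r = 0.84), FOXA3 most like CECR5 (r = 0.71) and FOXA2 most like AK1 (r = 0.66). The search covered 11562 genes, those that never fell under 10 counts. Within the 9, CEBPA and PROX1 (r = 0.87) and ONECUT1 and PROX1 (r = 0.86) were the closest pairs over 39 libraries, and FOXA3 and CEBPB (r = -0.45) the farthest. Without the 2 libraries farthest from the median that last r was -0.24, and without the low CISP library it was -0.35.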

How the data were processed

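The authors pooled RNA of 3 cultures a condition, made AmpliSeq libraries, aligned the reads with TMAP to the transcripts of the panel (hg19), pooled the reads of 5 chips and deposited raw counts per target. The deposited RPM values are these counts scaled to the library total, with no other normalization by the authors. Samples were grouped by the treatment and concentration in the labels, and the control of each chemical by its vehicle and chemical. The 10 spike-in targets held 0 counts and were left out, which left 20802 genes.

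Counts were tested with edgeR 4.0.16 (TMM, filterByExpr, quasi-likelihood, R 4.3.3) over all genes, 2-sided, with Benjamini-Hochberg adjustment and a threshold of 0.05. The fits were slopes by chemical (39 libraries, control set as a block of 9 levels, 20 residual degrees of freedom), class at each concentration (19 libraries, 8 residual degrees of freedom) and DMSO against media (8 libraries, 6 residual degrees of freedom). Ratios used log2(RPM + 1), which understates the change of low genes, and the control spread was taken over 12 pairs of controls of one vehicle. DESeq2 1.42.0, other size factors, filters, pseudocounts, dose scales, blocks and leave-one-out fits were alternatives. In data simulated on 13812 genes with 200 changed by 0.4 log2 per step in AFB1, 57.5% of the changed genes were recovered with 7 false calls. For the class difference, with a change of 1 log2 on 13602 genes, 54.5% were recovered, and for DMSO against media 76% on 13053 genes. Nothing states that libraries of a vehicle came from separate batches of cells.

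All 9 genes were described. From the other lists counts were given, with at most the 4 genes of smallest adjusted p in a comparison named, and likeness was the highest Pearson r of log2(RPM + 1). The genes and the lists were chosen with earlier results of these data known. Start windows came from RefSeq on GRCh38.p14, and no coordinates were taken from the deposited files.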

Additional observations from a re-analysis of the deposited data

Results flagged for a closer look

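Among 72 groups of 4 or 5 values (the DMSO and the media controls of each gene, and the log2 ratios of each class at each concentration), 4 held a value whose gap to its nearest neighbour was an unusual share of the whole range. Chance gives about 1 in 20. At the high concentration the COL value stood apart from the other non-DDI chemicals for HNF4A (log2 ratio -1.51, gap 0.896 of the range) and for ONECUT1 (-1.43, gap 0.787). At the low concentration the 2DG value of FOXA3 was highest among the non-DDI chemicals (0.28, gap 0.765), from 36 counts. In the DMSO controls NR5A2 was lowest in the CISP control (12.9 RPM, gap 0.893), while the other 3 held 17.5 to 18.0 RPM.

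Slopes that differed from the mean of the other 9 chemicals by edgeR were those of FOXA2 in MMS (-0.40 log2 per step, adjusted p 0.0451), PROX1 in MMS (-0.43, adjusted p 0.0409), NR5A2 in COL (-0.39, adjusted p 0.0115) and PROX1 in NaCl (0.51, adjusted p 0.0424). The FOXA2 call was lost in each of 4 alternatives. PROX1 in NaCl ran from 55.3 RPM in the control to 87.9 RPM at 10 mM, while its own slope did not pass the test (edgeR adjusted p 0.982). In the same library CEBPB was at 28.9 RPM against 50.4 RPM in the control, and SF1 at 176.4 RPM against 347.4 RPM. The part of that shift in the PROX1 value was not tested.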

How the results depend on the processing

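No called slope, and none of the ratios past the control spread at the high concentration, changed direction under the alternatives run. For MMS, with 1 water control, the mean of the same vehicle was the matched control itself, so those ratios could not change. Of 345 values for ratios within the spread, 39 changed sign. The class difference of HNF4A at the high concentration turned to 0.015 without the control set as a block, 0.025 in 1 fit of all 39 libraries and 0.021 without AFB1, and ran from -0.42 to 0.064 as each chemical was left out (highest without MMS). The slope of NR5A2 in 2NF turned to 0.0038 with the vehicle as a block and ran from -0.078 to 0.048 as the controls or a concentration were left out (highest without the high). Each trend call rests on 4 libraries, and its error is the departure from a straight line over 20 residual degrees of freedom, not a spread between replicate cultures. Beside the main counts of members called (3 for AFB1, 1 for 2NF, 6 for MMS, 6 for COL), dose as a share of the high dose gave 1 for AFB1, 0 for 2NF and 3 for MMS, and the vehicle in place of the control set as a block gave 5 for 2NF, of which FOXA2 (0.24 log2 per step, edgeR adjusted p 0.0358) was higher. DESeq2 gave 4 for AFB1 (HNF4A added) and 4 for MMS (FOXA2 and NR5A2 lost). Over 12 alternatives the calls lost most often were NR5A2 (7) and FOXA2 (6) in MMS and CEBPA in AFB1 (5), and those lost least were FOXA1 and PROX1 in MMS (1 each). Leaving out 1 concentration, or the controls, gave 0 to 4 for AFB1, 0 to 1 for 2NF, 0 to 5 for MMS and 0 to 6 for COL, and against the other chemicals 0 to 3 for MMS, 0 to 4 for COL, 0 to 1 for NaCl and 0 for AFB1. For DMSO against media the count was 1 with DESeq2, 1 without a filter on low counts and 0 to 1 when a control was left out. The class difference gave 0 members under each alternative run. Past the control spread at the high concentration, AMP gave 1 with a pseudocount of 0.1 RPM, 1 against the mean of the same vehicle and 1 against the mean of all 9 controls, against which 2DG also gave 1. Against both means 2NF gave 2 in place of 3, and against all 9 controls COL gave 5 in place of 6. The MMS count stayed at 5 against all 9 controls, with NR5A2 (-0.95) past its spread in place of FOXA2 (-0.46). The cause of these changes was not tested. TMM and DESeq2 factors moved the median log2 ratio of all genes by up to 0.108 and 0.117 and gave 6 genes for MMS in place of 5. On the low side, FOXA3 (8 to 57 counts) and FOXA2 (23 to 86 counts) limit what the depth can show. No paired analysis was possible because each condition is 1 library and replicate numbers only name the controls. The tie of each treated library to its own control is in the block by control set. The alternatives without the low CISP library, with the library covariate, and of the slopes against the other chemicals were chosen after the data were seen.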
